A study of Homo sapiens with 6 samples.

Results

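The circular RNAs (circRNAs) described here come mostly from host genes of cell division in Ishikawa cells, a human endometrial carcinoma line. Members were chosen by host gene symbol. The symbols were those of kinesins (KIF), centrosomal proteins (CEP), centromere proteins (CENP), and SMC, STAG and NCAP proteins. They also covered MCM, ORC, POLA, POLE, POLQ and RFC proteins of DNA replication or repair, ANAPC subunits, and the CDK, CDC and CCN families. A few more symbols were named outright, of which BUB1, ECT2 and NIPBL had circRNAs in the table. The rule gave 173 circRNAs of 86 host genes, out of 4814 circRNAs of 2531 host genes. They held 830 of 26060 back-splice junction reads, which is 3.18% of the reads in 3.59% of the circRNAs. The study sequenced circRNAs from 3 libraries of cells treated with MPA and 3 of untreated control cells. All 6 libraries came from the same cell line, and the labels gave no dose, duration or culture details and did not spell out MPA. The labels do not state whether each library had its own culture, so the p-values below reflect the spread among these libraries, part or all of which may be technical.

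A circRNA forms when the end of an exon is spliced back to the start of the same or an upstream exon, and only reads across that back-splice junction were counted. Many proteins of these hosts, though not all, act at successive steps of the division cycle. Origin recognition proteins and MCM proteins such as MCM6 prepare origins, and DNA polymerases copy the genome. Cohesin holds the copies together, and centrosomes, kinesins and kinetochores build and use the spindle. The anaphase-promoting complex then marks cyclins and the separase inhibitor for destruction. The level of a circRNA need not follow that of its host's mRNA or protein. In such bulk libraries, fewer cells in a phase of the cycle and less RNA per cell cannot be told apart.

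The symbol rule also took in hosts that are grouped here apart from the core division machinery. CCNH, CCNC, CDK13 and 9 other hosts carry a CCN, CDK or CDC name, several of them for roles in transcription, and they held 21 circRNAs and 128 reads. A further 5 hosts are kinesins outside the mitotic class, with 6 circRNAs and 19 reads; most of them carry cargo along microtubules, while KIF24 acts at centrioles. The centrosome class was the largest, with 47 circRNAs of 17 hosts and 254 reads, or 30.6% of the reads of these hosts. DNA replication had 31 circRNAs and 131 reads, cohesin, condensin and the SMC5/6 complex 25 and 106, and cell cycle cyclins, kinases and division switches 13 and 75. The DNA replication class also took in MCM8, MCM9 and POLQ, with 9, 3 and 9 reads, which act mainly in DNA repair. Mitotic kinesins had 15 circRNAs and 72 reads, kinetochore and checkpoint hosts 8 and 28, and the anaphase-promoting complex 7 and 17.

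The junction sequences below are shown because several hosts reused a back-splice site, so that their circles had the same bases on one side of the junction. Each has 20 bases before and 20 bases after the junction, with the first bases of the circle's first exon in capitals. They were read from GENCODE 29 transcripts (GRCh38) whose exon runs have the size of the circle in the table, and positions are those of the table, on hg19. CEP192 recruits the proteins that duplicate centrioles and nucleate microtubules, and 8 of its 12 circRNAs began at the same exon, exon 2 of 45, at position 12999420 on the plus strand of chromosome 18. The 4 circles shown ended at exons 3, 9, 15 and 30, at positions 13001581, 13019205, 13042333 and 13073184.
CEP192 hsa_circ_0046995: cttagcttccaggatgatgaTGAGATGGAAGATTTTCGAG
CEP192 hsa_circ_0000831: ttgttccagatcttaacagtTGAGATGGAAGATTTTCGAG
CEP192 hsa_circ_0046999: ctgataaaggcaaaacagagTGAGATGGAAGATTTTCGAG
CEP192 hsa_circ_0107924: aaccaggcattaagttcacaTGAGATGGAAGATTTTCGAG

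POLE2 encodes a subunit of DNA polymerase epsilon, which copies the leading strand. All 3 of its circRNAs began at exon 4 of 19 (position 50141145 on the minus strand of chromosome 14) and ended at exons 6, 9 and 10.
POLE2 hsa_circ_0004904: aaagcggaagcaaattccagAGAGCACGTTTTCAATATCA
POLE2 hsa_circ_0031787: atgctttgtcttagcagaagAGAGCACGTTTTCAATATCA
POLE2 hsa_circ_0008002: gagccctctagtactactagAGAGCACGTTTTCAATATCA

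CEP70, a centrosomal protein that binds gamma-tubulin, reused the other end: 3 of its circRNAs shared the last exon (position 138289160 on the minus strand of chromosome 3) and differed in the exon they began with.
CEP70 hsa_circ_0003823: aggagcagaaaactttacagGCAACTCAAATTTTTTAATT
CEP70 hsa_circ_0004524: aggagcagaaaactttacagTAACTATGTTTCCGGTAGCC
CEP70 hsa_circ_0002468: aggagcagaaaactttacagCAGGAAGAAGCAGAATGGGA

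The next sequences belong to circRNAs whose counts are described further on. CCNB1 encodes cyclin B1, which activates CDK1 for entry into mitosis, and its circle held exons 6 and 7 of 9 (chr5:68470704-68471364, plus strand). KIF20B is a kinesin of cytokinesis (exons 24 to 29 of 33, chr10:91511103-91522592, plus strand). CDC14B is a phosphatase that acts against CDK phosphorylation (exons 2 to 12 of 13, chr9:99284788-99327765, minus strand). CEP295 is needed for new centrioles to become centrosomes (exons 14 and 15 of 30, chr11:93429486-93433352, plus strand).
CCNB1 hsa_circ_0001495: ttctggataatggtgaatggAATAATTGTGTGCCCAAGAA
KIF20B hsa_circ_0019079: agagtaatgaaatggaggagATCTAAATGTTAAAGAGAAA
CDC14B hsa_circ_0087641: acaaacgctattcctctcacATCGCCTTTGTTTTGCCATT
CEP295 hsa_circ_0096775: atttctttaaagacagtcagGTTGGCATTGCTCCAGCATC

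In structure these circRNAs were close to the other circRNAs of the table. The authors' annotation called 155 of 173 exonic (89.6%, against 89.4% of the rest), 17 sense overlapping and 1 intronic. The exonic circles had a median length of 585 bases, against 548.5 in the rest, and ran from 174 to 5620 bases. A circBase identifier was given for 124 (71.7%, against 79.2% of the rest), and 45 carried no earlier database record (26.0%, against 19.8%). For 152 of the 155 exonic circles, runs of exons with the deposited span and length were found at exactly 1 genomic position of the host. Where several transcripts held such a run, exon numbers follow the transcript named in the authors' annotation, then the one with the most exons. The median run was 4 exons and the longest 31. Exon 2 was the first exon in 41 of the 152 (27.0%, against 30.2% of the matched rest). None began at exon 1 or ended at the last exon, which in the rest occurred in 6 and 2 of 3978. The circle of exon 10 of NIPBL, the cohesin loader (hsa_circ_0128922, 1626 bases), was the only one with a single exon, or 0.658% of the matched circles against 4.40% of the rest. Circles of 10 or more exons made up 11.2%, against 8.80%. The start codon of the host lay within 25 circles (16.4%, against 14.3%), and 126 held coding bases only (82.9%, against 84.0%).

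Reuse of back-splice sites was common, with shares near those of the other circRNAs of the table. The first base of the circle was shared with another circRNA by 56 of 173 (32.4%, against 29.2% of the rest) and the last base by 34 (19.7%, against 21.5%). The shared first bases fell at 22 sites in 20 hosts, and the shared last bases at 16 sites in 14 hosts. CEP192 had the most circRNAs, 12, followed by STAG1 with 8, CEP128 with 6, and KIF15 and ORC2 with 5 each. Of the hosts, 41 of 86 had 2 or more circRNAs (47.7%, against 39.9% of the rest). The 8 CEP192 circles that began at exon 2 ran from 294 to 5620 bases and held 62 reads, 80.5% of the host's. They had 15, 10 and 12 reads in MPA libraries 1 to 3, against 11, 8 and 6 in control libraries 1 to 3, and the ranges overlapped. STAG1 encodes a cohesin subunit, and 5 of its circles began at exon 8 of 34. They had 1, 4 and 3 reads in MPA libraries, against 2, 0 and 9 in control libraries. The 3 POLE2 circles had 4, 2 and 12 reads in MPA libraries, against 5, 1 and 6 in control libraries, and the 3 CEP70 circles with the shared last exon had 8, 6 and 9, against 7, 3 and 3. All 3 CDC14B circles began at exon 2, with 9, 0 and 8 reads in MPA libraries, against 3, 1 and 1 in control libraries. In each of these families the groups overlapped.

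**Figure D1:**
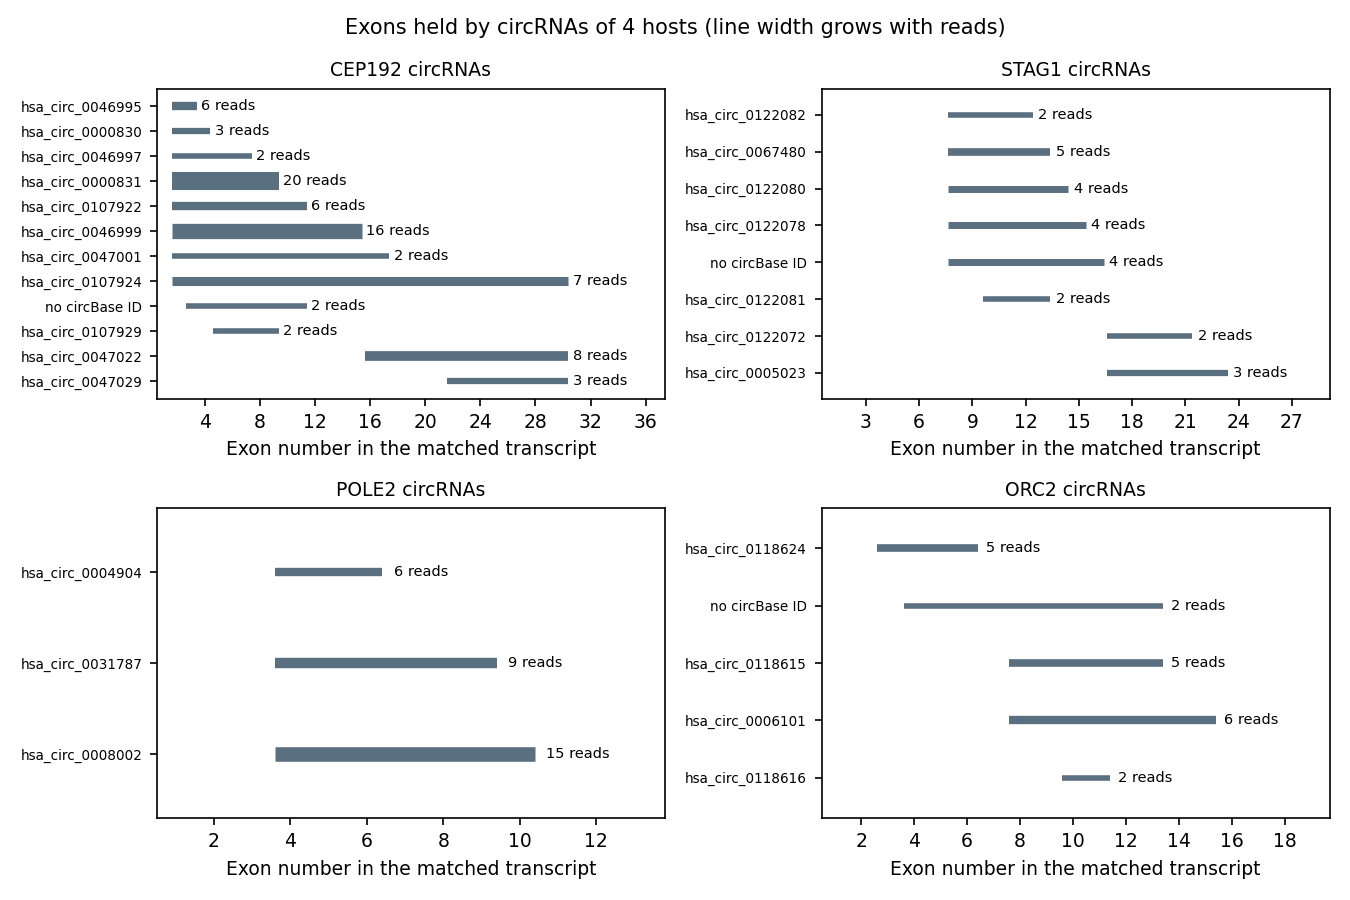
Exons held by the circRNAs of CEP192, STAG1, POLE2 and ORC2, drawn by exon number in the matched transcript. Each line is 1 circRNA, its width grows with its reads over the 6 libraries, and the number of reads stands at its end; 8 CEP192 circles begin at exon 2, 5 STAG1 circles at exon 8 and all 3 POLE2 circles at exon 4.

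Counts were low, which bounds every comparison below. The libraries held 4468, 4339 and 5454 junction reads with MPA and 4316, 3740 and 3743 in control, so that the upper limit for a circRNA with no read in a library was 0.0550% to 0.0802% of its reads (3 counts; counting error only). The median circRNA of these hosts had 3 reads over the 6 libraries, as in the rest. Of the 173, 93 were read in 1 library only (53.8%, against 48.5% of the rest), and 9 in all 6 libraries. Those 9 held 23% of the reads of these hosts, against 30.6% for the circRNAs of the rest that were read in all 6. The 9 came from CCNH, CCNB1, CDK13, CEP70 (both hsa_circ_0003823 and hsa_circ_0004524), KIF20B, CEP295, KIF15 and ORC4. A mean of at least 2 reads was reached by 16 circRNAs (9.25%, against 7.89% of the rest) and of at least 5 by CCNH alone (0.578%, against 1.94%). Endometrial epithelial marker genes were hosts in 3 of 12 cases (CDH1, PAX8 and EPCAM, 8 reads together), and markers of immune, endothelial, stromal and muscle cells in 1 of 14 (FBN1, 3 reads), so the cell type could hardly be checked from circRNAs.

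The shares of the hosts as a whole overlapped between the groups. Their circRNAs had 131, 157 and 175 reads in MPA libraries 1 to 3, against 152, 91 and 124 reads in control libraries 1 to 3. That was 2.93%, 3.62% and 3.21% of the reads with MPA, against 3.52%, 2.43% and 3.31% in control. The mean share was 3.25% ± 0.345 with MPA and 3.09% ± 0.578 in control (SD, n = 3 each), and the groups overlapped. Control library 2 was lowest, with a 95% Wilson interval of 1.99% to 2.98% that lay below that of control library 1 (3.01% to 4.11%). The difference of 0.16 percentage points became -0.16 without control library 2, -0.02 without MPA library 2 and 0.38 without control library 1. The number of these circRNAs detected was 58, 61 and 65 in MPA libraries, against 66, 41 and 61 in control libraries, or 61.3 ± 3.51 with MPA and 56 ± 13.2 in control (SD, n = 3 each). Thinned to the smallest library, the expected numbers were 56.9 ± 2.26 with MPA and 54.9 ± 12 in control. Without control library 2, the difference in detected circRNAs of 5.33 became -2.17.

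**Figure D2:**
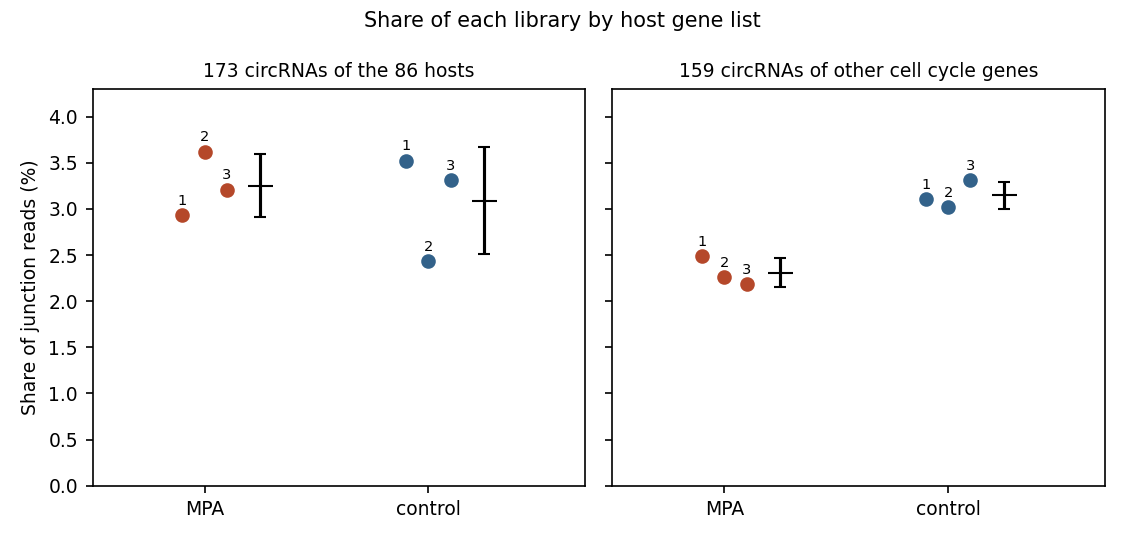
Share of each library's junction reads (%), for the 173 circRNAs of the 86 hosts (left) and for 159 circRNAs of a separate list of other cell cycle genes (right). Points are libraries with their numbers and the bars show the mean ± SD of 3 libraries; on the left the groups overlap, and on the right the MPA libraries (2.18% to 2.48%) lie below the control libraries (3.02% to 3.31%).

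No role class separated the groups. Centrosome hosts took 1.03% ± 0.225 of all junction reads with MPA and 0.903% ± 0.246 in control, and DNA replication hosts 0.511% ± 0.0811 with MPA and 0.494% ± 0.197 in control. Cohesin, condensin and SMC5/6 hosts took 0.479% ± 0.292 with MPA and 0.332% ± 0.110 in control. Cell cycle cyclins, kinases and switches took 0.316% ± 0.0995 with MPA and 0.251% ± 0.105 in control. Mitotic kinesins took 0.242% ± 0.0580 with MPA and 0.309% ± 0.0731 in control, and kinetochore hosts 0.103% ± 0.0718 with MPA and 0.115% ± 0.0607 in control (SD, n = 3 each). In all 9 classes the ranges of the groups overlapped.

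**Figure D3:**
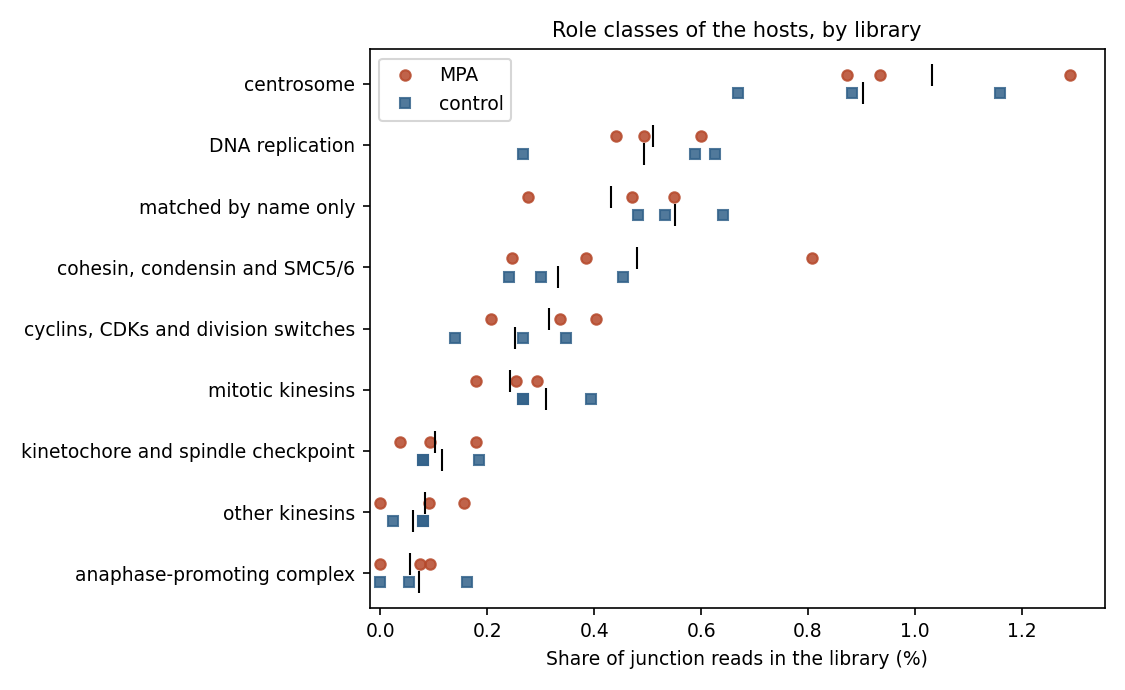
Share of junction reads (%) by role class of the host, with 1 point per library and a tick at the mean of 3 libraries. Within each class the MPA points are drawn in the upper row and the control points in the lower row, whatever their values. The ranges of MPA and control overlap in all 9 classes.

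None of the 16 circRNAs averaging 2 or more reads passed the test between MPA and control. With edgeR's quasi-likelihood test and Benjamini-Hochberg adjustment over 382 circRNAs of the whole table, 0 of 16 were called at an FDR of 0.05, where the background was 0% (0 of 382), and the smallest adjusted p among them was 0.994. At an unadjusted p under 0.05 there were 0 of 16, against 3.14% of all 382, and DESeq2 also called 0. The MPA and control libraries did not overlap in 1 of 16 after scaling, against 8.9% of all tested. MPA lay wholly above control in 0 of 16 (background 4.19%) and wholly below in 1 (background 4.71%). The log2 fold change was above 0 in 11 (68.75%, against 54.2% of all 382) and below 0 in 5. Its median was 0.40, against 0.07 over all 382. The 95% interval excluded a 4-fold change in either direction for 3 of the 16, against 133 of all 382. It excluded a 2-fold change for 0, against 8 of all 382.

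Among the cyclins and kinases, the most abundant circle was that of CCNH, a cyclin that works with CDK7 in transcription and CDK activation (chr5:86705107-86708639, minus strand, sense overlapping). It had 8, 5 and 13 reads in MPA libraries, against 14, 4 and 7 in control libraries. Its highest and lowest libraries were both controls, and the log2 fold change was -0.11 (SE 0.495). hsa_circ_0001495 of CCNB1 had 2, 7 and 5 reads in MPA libraries, against 1, 7 and 4 in control libraries, nearly the same spread in both groups (log2 fold change 0.04, SE 0.721). The steadiest counts were those of hsa_circ_0001699 of CDK13, a kinase of transcription elongation, with 4, 4 and 4 reads in MPA libraries, against 3, 4 and 4 in control libraries. hsa_circ_0087641 of CDC14B had 6, 0 and 5 reads in MPA libraries, against 1, 1 and 1 in control libraries. MPA library 2 lay below every control library, so the groups overlapped despite the largest log2 fold change of the 16, 1.60 (SE 1.12; edgeR quasi-likelihood unadjusted p = 0.155, Benjamini-Hochberg adjusted p = 0.994).

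Among the mitotic kinesins, hsa_circ_0019079 of KIF20B was the circRNA whose groups did not overlap after scaling. It had 2, 2 and 1 reads in MPA libraries, against 6, 5 and 2 in control libraries. As counts, control library 3 equalled MPA libraries 1 and 2. The log2 fold change was -1.46 (SE 0.991; edgeR quasi-likelihood unadjusted p = 0.141, Benjamini-Hochberg adjusted p = 0.994). hsa_circ_0002912 of KIF15, a kinesin that helps to keep spindle poles apart, had 2, 3 and 3 reads in MPA libraries, against 3, 1 and 1 in control libraries.

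Among the centrosome hosts, hsa_circ_0096775 of CEP295 had 2, 3 and 6 reads in MPA libraries, against 1, 1 and 2 in control libraries, and the groups touched at 2 reads (log2 fold change 1.20, SE 1.06). hsa_circ_0000831 of CEP192 had 4, 3 and 5 reads in MPA libraries, against 3, 5 and 0 in control libraries. hsa_circ_0046999, which begins at the same exon, had 5, 1 and 1, against 6, 0 and 3. The fold changes of these 2 circles had opposite signs, 0.40 (SE 0.895) and -0.47 (SE 0.983) on the log2 scale. hsa_circ_0003823 of CEP70 had 3, 4 and 5 reads in MPA libraries, against 4, 2 and 2 in control libraries, and hsa_circ_0004524 had 5, 2 and 1, against 3, 1 and 1.

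Among cohesin and replication hosts, hsa_circ_0001472 of NIPBL had 0, 11 and 3 reads in MPA libraries, against 0, 4 and 2 in control libraries, with most reads in MPA library 2 (log2 fold change 1.001, SE 0.917). It held exons 2 to 9 of 46. SMC3, a core cohesin subunit, had hsa_circ_0000260 with 2, 6 and 1 reads in MPA libraries, against 3, 0 and 1 in control libraries. hsa_circ_0008002 of POLE2 had 2, 1 and 6 reads in MPA libraries, against 1, 0 and 5 in control libraries, and library 3 was high in both groups. hsa_circ_0001074 of ORC4, a subunit of the origin recognition complex, had 2, 2 and 2 reads in MPA libraries, against 3, 1 and 2 in control libraries.

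**Figure D4:**
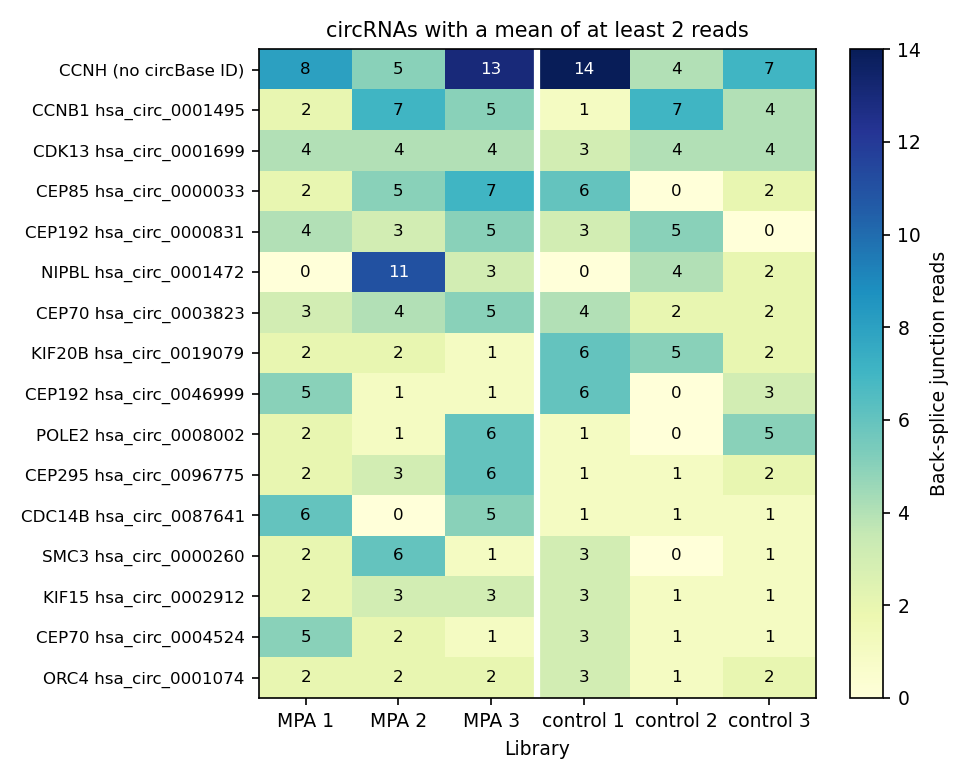
Back-splice junction reads in each library for the 16 circRNAs averaging 2 or more reads, with MPA libraries on the left of the white line and control libraries on the right; darker cells hold more reads. No circRNA has all its MPA counts above or below all its control counts; the groups meet at 2 reads for KIF20B, with MPA on the low side, and for CEP295, with MPA on the high side.

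Summed per host, the reads also gave no call. With edgeR's quasi-likelihood test and Benjamini-Hochberg adjustment over 565 host genes, 0 of 18 hosts were called, where the background was 0% (0 of 565), and the smallest adjusted p among the 18 was 0.988. At an unadjusted p under 0.05 there were 0 of 18, against 3.36% of all 565, DESeq2 also called 0, and the groups did not overlap in 0 of 18, against 8.5% (4.6% with MPA above and 3.89% with MPA below). The log2 fold change was above 0 in 10 (55.6%, against 50.6% of all 565) and below 0 in 8. Its median was 0.14, against 0.02 over all 565. The interval excluded a 4-fold change for 8 of the 18, against 202 of all 565. It excluded a 2-fold change for 0, against 24 of all 565.

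CEP192 had the most reads of these hosts, 16, 18 and 14 in MPA libraries, against 11, 10 and 8 in control libraries, or 16 ± 2 with MPA and 9.67 ± 1.53 in control (SD, n = 3 each). As counts the groups did not overlap; after scaling to the library totals, which were higher with MPA, they did (log2 fold change 0.47, SE 0.414). CEP128, a protein of the centriole's subdistal appendages, had 2, 5 and 4 reads in MPA libraries, against 11, 7 and 0 in control libraries, so the control group held both its highest library and its only 0 (log2 fold change -0.94, SE 0.750). CEP70 had 10, 6 and 9 in MPA libraries, against 8, 3 and 3 in control libraries. CDC14B had the largest fold change of the 18 hosts, 1.42 on the log2 scale (SE 0.963), and KIF20B the lowest, -1.09 (SE 0.934), with 2, 4 and 1 reads in MPA libraries, against 6, 5 and 2 in control libraries. KIF15 had 2, 3 and 11 in MPA libraries, against 5, 1 and 2 in control libraries, and MPA library 3 held 11 of its 24 reads.

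Cohesin hosts had fold changes of both signs, none past the test: NIPBL had 3, 12 and 3 reads in MPA libraries, against 2, 6 and 4 in control libraries (log2 fold change 0.34, SE 0.731), and STAG1 3, 4 and 5, against 2, 3 and 9 (log2 fold change -0.48, SE 0.815). Of the replication hosts, ORC2, an origin recognition subunit, had 2, 4 and 5 reads in MPA libraries, against 7, 0 and 2 in control libraries, and POLA1, the catalytic subunit of DNA polymerase alpha, 2, 5 and 2, against 0, 3 and 1. Their log2 fold changes were 0.02 (SE 0.913) and 0.87 (SE 1.23).

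**Figure D5:**
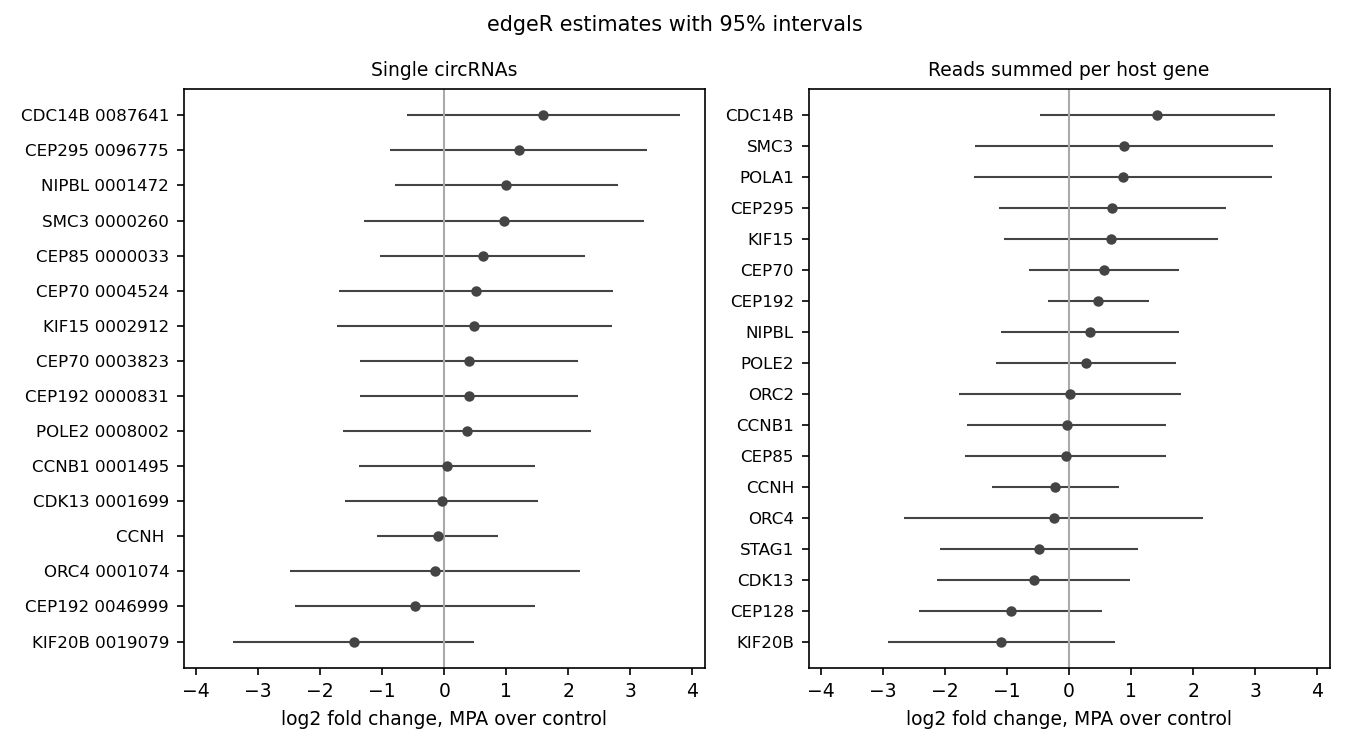
Log2 fold changes of MPA over control from edgeR with 95% intervals, for the 16 circRNAs (left, with the last digits of the circBase identifier) and the 18 host genes (right) with a mean of at least 2 reads. Every interval includes 0, and the points run from -1.46 to 1.60 for circRNAs and from -1.09 to 1.42 for hosts.

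The hosts below the filter entered only the fit with no filter, which called none of them. The spindle checkpoint kinase BUB1 had 4, 1 and 0 reads in MPA libraries and 0 in every control library, all from 1 circle. ECT2, which activates RhoA for cytokinesis, had 3, 2 and 3 reads in MPA libraries, against 0, 0 and 1 in control libraries, from 3 circles. CENPI, of the inner kinetochore, had 1, 3 and 0, against 1, 0 and 2, and CENPH, of the same complex, 0, 0 and 2, against 2, 0 and 1. KIF23, a cytokinesis kinesin, had 0, 0 and 3 reads in MPA libraries, against 1, 1 and 2 in control libraries. These counts left no host of the kinetochore class with reads in every library of a group.

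Subunits of the anaphase-promoting complex were likewise scattered: ANAPC1 had 0, 4 and 0 reads in MPA libraries, against 3, 0 and 2 in control libraries, CDC16 had 0, 0 and 2, against 4, 0 and 0, and ANAPC4 had 0, 0 and 2, against 0 in every control library. CCNC, the cyclin of the Mediator kinase module, had 0, 0 and 1 reads in MPA libraries, against 2, 2 and 5 in control libraries. Of the kinesins outside the mitotic class, KIF16B had 3, 0 and 0 reads in MPA libraries, against 1, 3 and 3 in control libraries, and KIF1B and KIF13B had 3 and 2 reads, each within 1 MPA library. Over all 86 hosts with no filter, the shares of the groups did not overlap in 3, against 4.58% of all 2531 hosts. ECT2 was above control, where the background was 2.13%, and CCNC and CEP72, a centrosomal protein with 0, 0 and 0 reads in MPA libraries, against 2, 1 and 3 in control libraries, were below, where it was 2.45%. With edgeR's quasi-likelihood test and no filter, the unadjusted p was 0.166 for ECT2, 0.0682 for CCNC and 0.0514 for CEP72, and the Benjamini-Hochberg adjusted p was 0.658 for each. CEP72 was chosen after its values were seen.

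Some of these reads have an uncertain origin. STAG3L1 and STAG3L3, copies related to the cohesin gene STAG3, each had a circle of 751 bases with 0, 3 and 0 reads in MPA libraries, against 0 in every control library, and whether the same reads were counted at both copies was not tested. Both were picked out after their values were seen, as was CENPIP1, a pseudogene named for CENPI, whose circle had 3, 0 and 0 reads in MPA libraries, against 1, 1 and 0 in control libraries.

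A separate list of 152 other cell cycle genes, outside the symbol rule, gave 159 circRNAs of 69 genes with 699 reads. They had 111, 98 and 119 reads in MPA libraries, against 134, 113 and 124 in control libraries. Their share was 2.48%, 2.26% and 2.18% in MPA libraries, against 3.10%, 3.02% and 3.31% in control libraries, and the groups did not overlap. The mean was 2.31% ± 0.157 with MPA and 3.15% ± 0.150 in control (SD, n = 3 each). No p is given, since the list was chosen with results of these data known. The 153 circRNAs that averaged under 2 reads took 1.72% ± 0.305 with MPA and 2.54% ± 0.0440 in control. The 6 with a mean of at least 2 took 0.592% ± 0.153 with MPA and 0.603% ± 0.188 in control (SD, n = 3 each). Added to the circRNAs of the 86 hosts, the list gave 5.56% ± 0.274 with MPA and 6.24% ± 0.676 in control, and the groups overlapped.

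Of this list, 20 host genes were tested and edgeR's quasi-likelihood test with Benjamini-Hochberg adjustment called 0, with 0 at an unadjusted p under 0.05 (background 3.36%). The log2 fold change was above 0 in 7 (35%, against 50.6% of all 565) and below 0 in 13. Its median was -0.43, against 0.14 for the 18 hosts of the symbol rule and 0.02 over all 565. After scaling, the MPA libraries all lay below the control libraries in 3 of the 20 (background 3.89%), namely PDS5A, RIF1 and POLD1. Of these, RIF1 and POLD1 were chosen after their values were seen, and as counts their groups met at 2 reads. PDS5A, a cohesin regulator, had 5, 4 and 5 reads in MPA libraries, against 6, 6 and 10 in control libraries (log2 fold change -0.90, SE 0.633). RIF1, a regulator of replication timing, had 0, 2 and 0, against 2, 2 and 6, and POLD1, the catalytic subunit of DNA polymerase delta, had 1, 2 and 1, against 2, 7 and 2. The most abundant host of the list was DNA2, a nuclease and helicase of replication, with 16, 15 and 15 reads in MPA libraries, against 10, 8 and 17 in control libraries (log2 fold change 0.13, SE 0.399). SKA3, of the outer kinetochore, had 4, 3 and 14 in MPA libraries, against 4, 5 and 5 in control libraries. CLASP1, which acts at microtubule ends, had 2, 4 and 7, against 9, 4 and 4, and RACGAP1, of the central spindle, had 6, 3 and 5, against 6, 0 and 3.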

How the data were processed

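Per the file headers, the authors deposited unnormalized counts of junction reads for each circRNA in each library. CASAVA 1.8, BWA and hg19 are listed in the submitters' processing notes, with no roles, and no circRNA caller is named in the sources used here. The lowest count in the best library of any listed circRNA was 2. Per the file headers, the authors also deposited 6 columns of log2 CPM values made with edgeR, which were not used. The depth of the libraries beyond junction reads is unknown.

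Libraries were grouped by the labels. Libraries of 1 group always differed beyond sampling noise (chi-square per degree of freedom 1.40 to 1.78, largest p = 4.80e-07), so none was treated as a copy of another; each counted as 1 replicate, per the labels, and this does not show separate cultures. circRNAs, and reads summed per host gene, with a mean of at least 2 reads were tested over the whole table with edgeR 4.0.16 in R 4.3.3 (TMM, robust quasi-likelihood fit, group term, Benjamini-Hochberg adjustment, FDR 0.05). The p-value gave the standard error and 95% interval of each log2 fold change. DESeq2 1.42.0, other scalings and filters, a replicate block and leaving out each library were the alternatives. Groups were called overlapping on TMM-scaled counts, or on shares of reads where no filter applied.

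Exon numbers and junction sequences come from GENCODE 29 transcripts of the same gene on GRCh38, matched by genomic span and exonic length only, so no coordinate was converted. Python 3.11.15, pandas 2.3.3, scipy 1.17.1, numpy 2.4.6 and matplotlib 3.10.9 were used.

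The rule for named genes took circRNAs read in all 6 libraries, up to 3 hosts per role class with the most reads, the 5 circRNAs and 5 hosts with the smallest p, hosts with 5 or more circRNAs, and the 5 most abundant hosts of the other list. The members, role classes, lists and rules were chosen with earlier results of these data known.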

Additional observations from a re-analysis of the deposited data

How the results depend on the processing

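The number of circRNAs and hosts of the symbol rule past the FDR stayed at 0 under every alternative run: DESeq2 size factors, library totals only, a mean of 5 or more reads, no filter, DESeq2, the replicate block and leaving out each library. With no filter, edgeR gave an unadjusted p under 0.05 to 2 circRNAs of the 173, against 43 of all 4814, and to 1 host of the 86, against 35 of all 2531. Those of the symbol rule are named here after their values were seen. They were hsa_circ_0071653 of CEP72 (0.0439), hsa_circ_0090162 of POLA1 (0.0437), which had 0, 5 and 2 reads in MPA libraries and 0 in every control library, and the host CEP83 (0.0297), with 0 in every MPA library and 1, 0 and 6 reads in control libraries. Their adjusted p were 0.545, 0.545 and 0.658. Without MPA library 2, edgeR's quasi-likelihood test gave 1 of the 18 tested hosts an unadjusted p under 0.05 (0.0310), against 22 of all 565. Without control library 3 it also gave 1 of the 18 (0.0362), against 21 of all 565. The smallest Benjamini-Hochberg adjusted p among the 18 in these 2 fits was 0.972 and 0.996.

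Deviations from the group means correlated weakly between libraries of the same replicate number, at 0.04, 0.10 and 0.07 for circRNAs and 0.04, 0.08 and 0.04 for hosts. Between different numbers the correlations ran from -0.10 to 0.035 for circRNAs and from -0.063 to 0.025 for hosts. Each of the 6 libraries correlated best with its own number. With so few reads, these values cannot settle whether the replicate numbers in the labels pair the libraries. With the replicate block, 0 circRNAs and 0 hosts of the symbol rule were called, and CCNB1 as host had a log2 fold change of 0.016 in place of -0.04.

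The sign of CCNB1 also depended on scaling and filter, near 0. Its circRNA, at 0.04, gave -0.034 with DESeq2 size factors, -0.064 with library totals only and -0.038 with DESeq2, and its host sum gave 0.027 with no filter. Among the tested circRNAs and hosts named by the rule, which leaves out CEP85, leaving out each library in turn changed the sign of 10 circRNAs. Their log2 fold changes ran from -0.45 to 0.39 for CCNH, -0.49 to 0.71 for CCNB1, -0.24 to 0.039 for CDK13, -0.15 to 1.21 for hsa_circ_0000831 and -1.75 to 0.41 for hsa_circ_0046999 of CEP192, -0.42 to 1.12 for hsa_circ_0004524 of CEP70, -0.67 to 1.94 for NIPBL, -0.062 to 2.13 for SMC3, -0.49 to 2.18 for POLE2 and -0.44 to 0.16 for ORC4. For host sums they ran from -0.55 to 0.37 for CCNH, -0.47 to 0.61 for CCNB1, -0.21 to 1.46 for KIF15, -0.65 to 0.75 for NIPBL, -0.84 to 0.40 for STAG1, -0.063 to 2.12 for SMC3, -0.54 to 0.69 for POLE2, -0.55 to 1.50 for ORC2 and -0.56 to 0.15 for ORC4. The circRNAs of KIF20B (-1.79 to -1.17), CDC14B (0.89 to 2.10), CEP295 (0.74 to 1.60) and KIF15 (0.26 to 1.08) kept their sign, as did hsa_circ_0003823 of CEP70 (0.25 to 0.71). So did the host sums of CDC14B, CDK13, CEP128, CEP192, CEP295, CEP70, KIF20B and POLA1.

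Leaving out each library gave a difference in share of the symbol rule of -0.16 to 0.38 percentage points, and in detected circRNAs of -2.17 to 10.3. For the other cell cycle genes, the difference in share of -0.84 ran from -0.93 to -0.75 without each library, was -0.46 without the 5 hosts that moved most, and was 0.035 when list and totals were both limited to circRNAs averaging 2 or more reads; these alternatives were chosen after seeing the data, and the cause was not tested. With 3 libraries a group and few reads, the 95% interval of every tested circRNA and host of the symbol rule included a 2-fold change in at least 1 direction.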
